A study of Mus musculus with 2148 samples.

Results

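The aquaporin genes are the mouse genes whose symbols carry the Aqp root, and 10 of them were followed: Aqp1, Aqp2, Aqp3, Aqp4, Aqp5, Aqp6, Aqp7, Aqp8, Aqp9 and Aqp11. They were picked by symbol, after the Ensembl identifiers of the count table had been matched to gene names, and make up 10 of the 48437 genes in the table. Mip and Aqp12, also of the family, were read beside them. The values come from RamDA-seq, which copies whole transcripts of single cells from random as well as oligo-dT primers, in thymic epithelial cells (TECs) of C57BL/6 mice sorted into cortical TECs (cTEC, Ly51+) and into medullary TECs with high or low MHC class II (mTEChi and mTEClo). The 8 groups, of 77 to 620 cells, were adult WT mTEChi (620 cells), mTEClo and cTEC (77 cells), adult Aire-KO mTEChi and mTEClo, and newborn WT mTEChi, mTEClo and cTEC.

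The labels do not number the mice. Cells of a group with the same age and sex were therefore summed into 13 mouse pools. Adult WT mTEChi had 4 pools: 82 cells of 4-week females, a pool of 4-week males that holds most of the group, 12 cells of 5-week males and 82 cells of 6-week males. Adult WT mTEClo had 3 pools of males, of 4, 5 and 8 weeks. The other groups had 1 pool each: males of 5 weeks for both Aire-KO groups, males of 6 weeks for adult cTEC, and newborns of 1 day with no sex given. The Aire-KO mice are an established Aire-deficient line on the C57BL/6 background, and no plate held cells of both genotypes, so genotype and plate cannot be told apart. Nothing in the labels says how many mice stand behind a pool, so p-values measure the spread between these pools or plates, which may in part be technical.

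Aquaporins are membrane channels that let water cross a cell membrane down an osmotic gradient. The family holds water-selective channels (Aqp1, Aqp2, Aqp4, Aqp5, Aqp8 and the lens protein Mip), the anion-conducting Aqp6 of intracellular vesicles in kidney, the aquaglyceroporins that also pass glycerol (Aqp3, Aqp7 and Aqp9), and the less typical Aqp11 and Aqp12, which sit mainly in membranes inside the cell. Most members are known from single peripheral tissues, such as Aqp2 from the kidney collecting duct, Aqp4 from astrocytes and Aqp9 from liver. In the thymus, mTECs transcribe many such tissue-restricted genes, each in few cells at a time, and the nuclear protein Aire is needed for a large part of that transcription.

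In the GENCODE annotation of GRCm38, 3 members lie in a row on the plus strand of chromosome 15, Aqp2 (ENSMUSG00000023013, chr15:99579055-99584547), Aqp5 (ENSMUSG00000044217, chr15:99590782-99594829) and Aqp6 (ENSMUSG00000043144, chr15:99601400-99605477), with gaps of 6235 and 6571 bases. Aqp7 (ENSMUSG00000028427, chr4:41033074-41048139) and Aqp3 (ENSMUSG00000028435, chr4:41092722-41098183) lie on the minus strand of chromosome 4, with a gap of 44583 bases. The remaining members stand alone: Aqp1 (ENSMUSG00000004655, chr6:55336432-55348555), Aqp8 (ENSMUSG00000030762, chr7:123462291-123468004), Aqp11 (ENSMUSG00000042797, chr7:97724006-97738289), Aqp9 (ENSMUSG00000032204, chr9:71110659-71168682) and Aqp4 (ENSMUSG00000024411). Reads were counted without regard to strand, and Aqp4 and Aqp9 overlap antisense genes, AC133525.2 and Gm32511. Aqp9 also overlaps the processed pseudogene Gm47268. Where these genes overlap, strand cannot tell their reads apart.

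To show the starts of members that were read in many and in few cells, the 250 bases before the RefSeq transcription start (GRCm38.p6, 5′ to 3′ on the strand of the gene) are printed for Aqp11, which was read in every group, for Aqp3 and Aqp5, which were read in many cells of some groups, and for Aqp6, Aqp8 and Aqp9, which were read in few cells. Capitals mark CG dinucleotides. The windows are chr7:97738248-97738497 (minus) for Aqp11, chr4:41098184-41098433 (minus) for Aqp3, chr15:99590778-99591027 (plus) for Aqp5, chr15:99600950-99601199 (plus) for Aqp6, chr7:123462044-123462293 (plus) for Aqp8 and chr9:71163290-71163539 (minus) for Aqp9, the first of 2 RefSeq starts of that gene.
Aqp11: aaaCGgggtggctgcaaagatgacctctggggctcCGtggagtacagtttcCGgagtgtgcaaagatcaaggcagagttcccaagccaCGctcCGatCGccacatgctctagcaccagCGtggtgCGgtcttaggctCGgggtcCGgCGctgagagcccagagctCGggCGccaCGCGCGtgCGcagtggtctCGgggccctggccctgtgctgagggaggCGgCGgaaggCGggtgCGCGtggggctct
Aqp3: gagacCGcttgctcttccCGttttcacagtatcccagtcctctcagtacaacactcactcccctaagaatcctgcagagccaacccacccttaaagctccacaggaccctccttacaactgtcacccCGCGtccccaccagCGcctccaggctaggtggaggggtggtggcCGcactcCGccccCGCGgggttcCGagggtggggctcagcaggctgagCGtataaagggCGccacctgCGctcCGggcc
Aqp5: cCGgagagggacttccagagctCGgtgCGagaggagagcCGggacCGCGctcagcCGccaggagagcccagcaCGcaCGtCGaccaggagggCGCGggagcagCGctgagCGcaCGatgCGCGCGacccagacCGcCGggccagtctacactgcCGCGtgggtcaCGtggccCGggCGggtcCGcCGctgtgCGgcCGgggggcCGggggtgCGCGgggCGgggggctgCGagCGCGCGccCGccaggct
Aqp6: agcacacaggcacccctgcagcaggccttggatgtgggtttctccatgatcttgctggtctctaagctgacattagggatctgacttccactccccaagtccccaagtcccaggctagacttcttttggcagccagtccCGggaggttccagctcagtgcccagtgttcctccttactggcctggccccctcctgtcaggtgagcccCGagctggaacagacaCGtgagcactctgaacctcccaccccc
Aqp8: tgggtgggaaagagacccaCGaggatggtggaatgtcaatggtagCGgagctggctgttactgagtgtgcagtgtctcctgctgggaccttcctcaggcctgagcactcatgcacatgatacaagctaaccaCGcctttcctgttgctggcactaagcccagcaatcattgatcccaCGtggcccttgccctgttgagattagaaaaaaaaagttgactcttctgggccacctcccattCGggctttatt
Aqp9: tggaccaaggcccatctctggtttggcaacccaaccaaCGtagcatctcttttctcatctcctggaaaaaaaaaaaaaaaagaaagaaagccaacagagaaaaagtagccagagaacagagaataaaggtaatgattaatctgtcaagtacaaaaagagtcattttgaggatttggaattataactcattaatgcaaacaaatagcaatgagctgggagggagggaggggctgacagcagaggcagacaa
Aqp5 held 38 CG dinucleotides, more than 98.1% of the 32851 RefSeq windows of the genome, and Aqp11 held 23, more than 86.7% of them. Aqp3 held 14. The median window held 6. Of the members read in few cells, Aqp1 and Aqp8 held 5, Aqp6 held 3 and Aqp9 held 1, below the median, and Aqp2 held 8, above it, while the 2 windows of Aqp7, which was read in many mTEChi cells, held 0 and 2. The letters TATAAA, found on either strand in 12.4% of all windows, were present in Aqp3 alone among the 9 members with a window. The letters GGGCGG (32.7% of windows) were present in Aqp1, Aqp3 and Aqp5, and CCAAT (33.8%) in none of the 9. These matches describe the letters of each window. RefSeq and GENCODE starts differ for some members, and the printed windows of Aqp5 (nearly all of it) and Aqp9 (all of it) lie inside their GENCODE genes.

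A cell had 692880 reads at the median (at least 203010), and no cell repeated the counts of another. Levels are given in CPM (reads of a gene per 1000000 reads of the summed cells), and a cell is called positive for a gene at 5 or more reads. The sorts carried the markers of their labels, where a cell carries a list if at least 4 of its 6 genes have 5 or more reads. The mature mTEC list was carried by 98.5% of adult WT and 90.8% of Aire-KO mTEChi cells, against 42.02% of adult WT mTEClo cells. It includes Aire and the MHC class II gene H2-Aa, so it is not independent of genotype or of the sort. The cTEC list was carried by 76 of 77 adult cTEC and every newborn cTEC. The adult WT mTEClo pools of 4, 5 and 8 weeks differed among themselves: 25.8%, 29.7% and 97.7% of their cells carried the immature mTEC list and 54.5%, 60.8% and 4.61% the tuft list. Neither the cTEC nor the immature mTEC list was limited to its sort. The cTEC list was also carried by 95.2% of newborn mTEClo cells and by 68.9% of adult WT, 65.4% of Aire-KO and 81.9% of newborn mTEChi cells. The immature mTEC list was carried by 71.4% of adult and 89.2% of newborn cTEC. No cell of any group carried the endothelial or the red cell list, cell types known for Aqp1. Aire, the targeted gene, stood at 1193.3 CPM in adult WT mTEChi and 26.1 CPM in Aire-KO mTEChi, and at 35.4 and 0.15 CPM in the adult mTEClo groups. The 5-week pool of adult WT mTEChi, with 12 cells, is the smallest, and the 3 pools whose cells were sequenced in 2 runs are all adult WT (mTEChi of 5 and 6 weeks, mTEClo of 5 weeks).

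The members fell into 3 classes of breadth when every cell was thinned to 200000 reads. Aqp11 alone was broad, with a read in at least 20% of the cells of all 8 groups (30.8% to 62.6%). Aqp3, Aqp4, Aqp5 and Aqp7 were uneven, passing that limit in 7, 2, 2 and 3 groups. Aqp1, Aqp2, Aqp6, Aqp8 and Aqp9 stayed under it in every group, as did Mip and Aqp12. The same 1, 4 and 5 members per class were counted with cells of 5 or more reads at full depth, and a limit of 10% gave 2 broad, 5 uneven and 3 few-cell members, and one of 50% gave 0, 4 and 6.

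**Figure D1:**
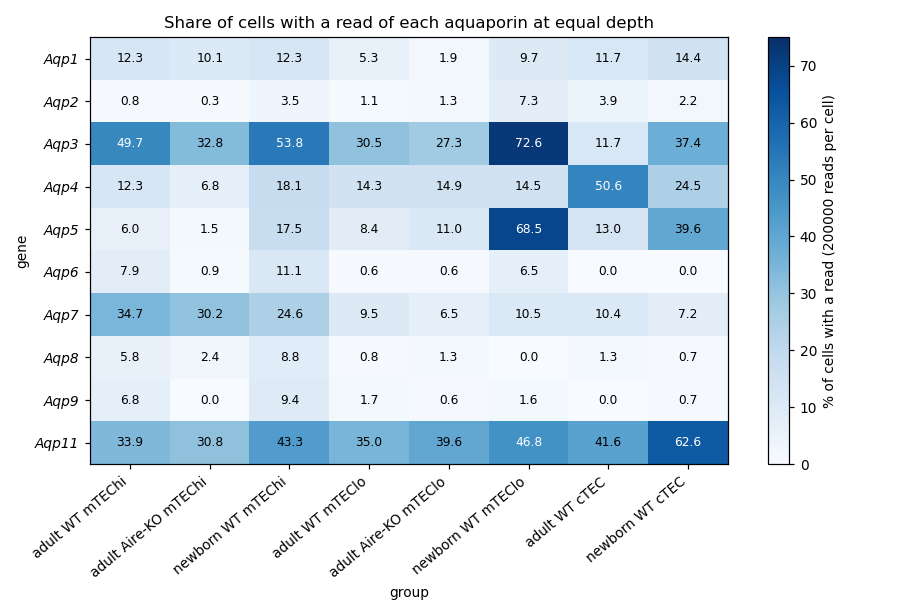
Share of cells (%) with a read of each aquaporin gene (rows) in each of the 8 groups (columns), after every cell was thinned to 200000 reads; darker blue is a larger share and the number in each box is the share. Aqp11 is between 30.8% and 62.6% throughout, Aqp5 peaks in newborn mTEClo at 68.5%, and the rows of Aqp2, Aqp6, Aqp8 and Aqp9 stay below 12%.

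Among the water-selective channels, Aqp1, the water channel of red cells, kidney proximal tubule and endothelium, had its highest levels in mTEChi, although 9.09% of adult cTEC (7 of 77 cells) were also positive. The 4 adult WT mTEChi pools stood at 84.6 CPM (4-week females), 10.0 CPM (4-week males), 1.00 CPM (5 weeks) and 29.7 CPM (6 weeks), and the 3 mTEClo pools at 0, 0.10 and 0.54 CPM. The ranges of the 2 sorts did not overlap, but the mTEChi pools were far apart. Few cells set these levels: 47 adult WT mTEChi cells (7.58%) were positive, 4 of them held 50% of the 9696 reads, and the top cell, with 18.6% of the reads, was the main source of the 6-week value, which was 3.83 CPM without it. The 4-week female pool also had the widest low-level signal, with a read in 54.9% of its cells against 13.5% in 4-week males, and it was 52.9 CPM without its own top cell. In newborn cTEC 88.4% of the reads behind a level of 11.2 CPM came from 1 cell.

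Aqp2, the vasopressin-controlled channel of the collecting duct, had the fewest reads of the 10 members, from 0.02 CPM in Aire-KO mTEClo to 1.60 CPM in newborn mTEClo. At most 4 cells of any group were positive. In newborn mTEClo 67.2% of the reads came from 1 cell.

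Aqp4, the water channel of astrocyte end feet, had its highest group level in adult cTEC (106.5 CPM, 1 pool, 39 of 77 cells positive), with 6.51% to 19.4% of cells positive in the other groups. The 3 adult WT mTEClo pools stood at 123.2, 30.6 and 20.5 CPM (4, 5 and 8 weeks), and the 4 mTEChi pools at 30.8, 11.9, 0.38 and 1.59 CPM (4-week females, 4-week males, 5 and 6 weeks). These ranges overlapped. In adult WT mTEClo 27 cells (7.56%) were positive, and the highest of them held 2674 of 9927 reads. The newborn groups, at 18.7 CPM in mTEClo, 17.9 CPM in mTEChi and 17.3 CPM in cTEC, differed by less than their plates, which ran from 0.05 to 66.3 CPM in newborn mTEClo.

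Aqp5, the channel of salivary, lacrimal and airway gland cells, was read in most newborn mTEClo cells. Its newborn mTEClo plates stood at 14.8, 21.5, 38.3, 27.8 and 48.8 CPM, its newborn cTEC plates at 5.58 to 18.0 CPM and its newborn mTEChi plates at 1.10 to 19.7 CPM. The adult WT mTEClo pools were at 20.5, 1.10 and 4.72 CPM, of which the highest overlapped the newborn plates. Positive cells made up 62.9% of newborn mTEClo (78 cells) and 30.2% of newborn cTEC (42 cells), against 5.32% of adult WT mTEClo (19 cells) and 3.71% of adult WT mTEChi (23 cells). Adult cTEC stood at 18.9 CPM, with 10 of 77 cells positive.

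Aqp6 had 33 positive cells in adult WT mTEChi and none in adult WT mTEClo, where 2 reads were found in all. By counting error alone, 0 positive cells there allow a share of up to 0.84% of cells at 5 or more reads. The 4 mTEChi pools stood at 11.6, 2.44, 166.1 and 16.3 CPM (4-week females, 4-week males, 5 and 6 weeks). The pool at 166.1 CPM is the one of 12 cells, 1 of which held 28.02% of the 3883 reads of the whole group, and the pool was 34.0 CPM without that cell. In newborns the gene stood at 4.87 CPM in mTEClo (4 positive cells, 1 of them with 73.6% of the reads) and 3.88 CPM in mTEChi (9 positive cells), a difference smaller than the spread of the plates (0.18 to 34.8 CPM and 0.11 to 15.9 CPM). Positive adult WT mTEChi cells had a median of 1655.4 CPM of Aire. Of them, 75.8% were above the median of all adult WT mTEChi cells (1052.4 CPM), while for the other members with more than 5 positive cells that share was 35.5% to 56.7%.

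Aqp8, a channel of colon, liver and pancreas epithelium, was found in mTEChi of both ages and at or next to 0 in the other WT groups. The adult WT mTEChi pools stood at 2.76, 5.48, 0 and 2.60 CPM, with the 0 in the 12-cell pool, and the mTEClo pools at 0.02, 0 and 0.04 CPM. Newborn mTEChi plates were at 15.3, 3.41, 14.3, 0.89 and 0.66 CPM, while no newborn mTEClo plate exceeded 0.10 CPM. Again few cells carried the level: 31 adult WT mTEChi cells (5.00%) and 8 newborn mTEChi cells (4.68%) were positive, and the top newborn cell held 57.95% of the reads. Positive adult WT mTEChi cells had a median of 606.4 CPM of Aire, below that of the whole group.

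The aquaglyceroporins included the most abundant member. Aqp3, the glycerol channel of basal epidermis and gut epithelium, led the members in adult WT mTEChi per kilobase of exon, with 39.0 CPM per kilobase against 7.73 for Aqp1 and 6.97 for Aqp7. Its adult WT mTEChi pools stood at 123.1, 63.5, 6.63 and 81.7 CPM (4-week females, 4-week males, 5 and 6 weeks) and its mTEClo pools at 12.9, 10.1 and 13.1 CPM. The 12-cell mTEChi pool was below all mTEClo pools and the other 3 were above them. Newborn mTEClo plates ran from 37.5 to 77.1 CPM, next to 72.1 to 121.04 CPM in newborn mTEChi and 3.18 to 11.4 CPM in newborn cTEC. Positive cells were 39.2% in adult WT mTEChi, 28.99% in Aire-KO mTEChi, 17.1% in adult WT mTEClo and 62.1% in newborn mTEClo.

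Aqp7, the glycerol channel of fat cells, was in many mTEChi cells of both genotypes: 29.7% of adult WT and 28.1% of Aire-KO mTEChi cells were positive, against 16.4% in newborn mTEChi and 4.48% in adult WT mTEClo. The adult WT mTEChi pools stood at 8.88, 22.2, 1.75 and 16.8 CPM and the mTEClo pools at 2.24, 5.34 and 8.78 CPM, so the ranges overlapped. In adult WT mTEClo 1 cell held 65.7% of the reads.

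Aqp9, the glycerol and urea channel of liver, varied least between the 4 adult WT mTEChi pools among the few-cell members. The adult WT mTEChi pools stood at 5.24, 6.56, 9.01 and 5.52 CPM, a mean of 6.58 ± 1.72 (SD, n = 4), and the mTEClo pools at 2.45, 0.02 and 0.13 CPM. In adult WT mTEClo 85.5% of the reads came from 1 cell. In adult WT mTEChi 31 cells were positive and 4 cells held 50% of the 3016 reads.

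Aqp11, whose product lies in the endoplasmic reticulum, showed the narrowest range over the 8 groups, from 8.66 CPM in Aire-KO mTEChi to 28.3 CPM in adult cTEC. The adult WT mTEChi pools (17.1, 9.94, 5.51 and 6.29 CPM) and mTEClo pools (4.86, 5.87 and 18.2 CPM) spanned nearly the same range. Of the 8 groups, adult cTEC alone lay above that range, and the order of the others is within the spread of these pools. In adult cTEC 10 of 77 cells carried the thymocyte list and held 72.7% of the Aqp11 reads, and the other 67 cells stood at 9.28 CPM. Positive cells made up 28.6% to 55.4% of every group.

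**Figure D2:**
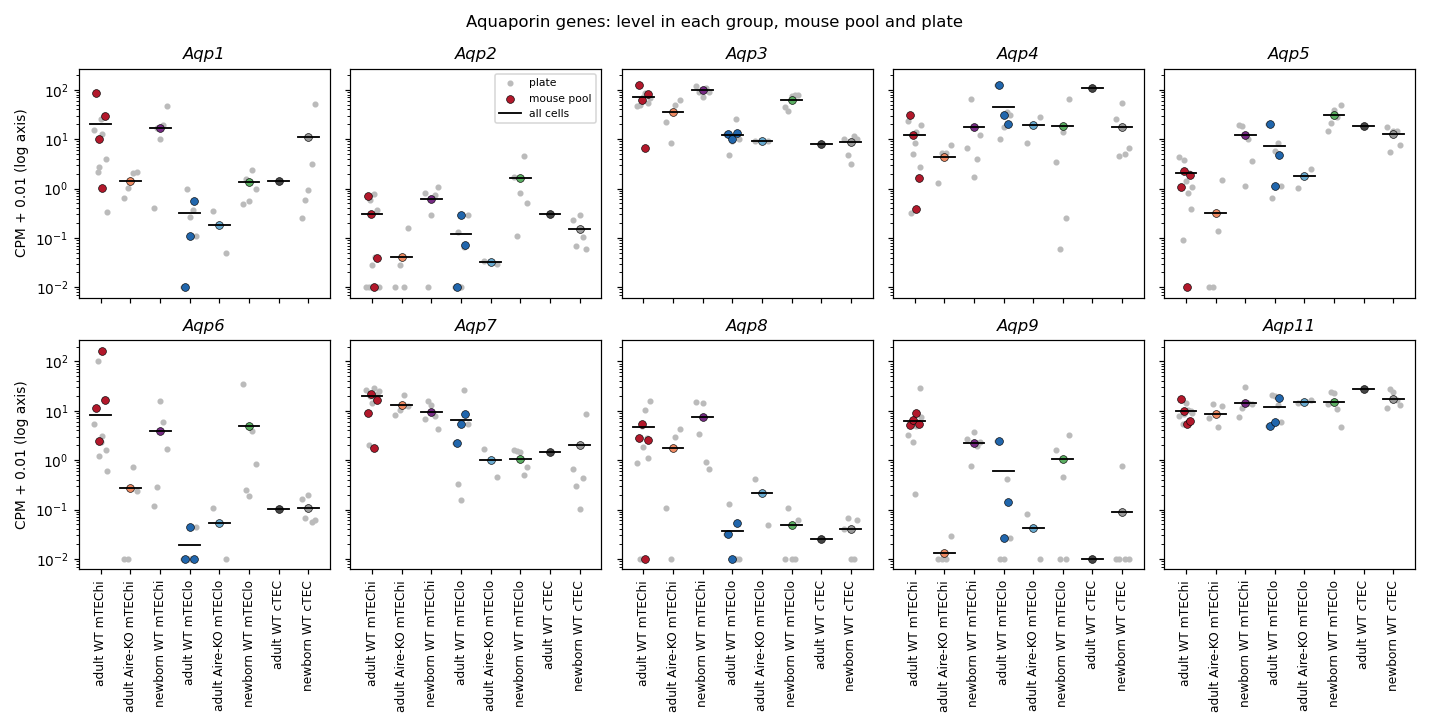
Level of each aquaporin gene (CPM + 0.01, log axis) in the 8 groups. Black lines are all cells of a group, coloured points with a black rim are mouse pools and grey points are plates; points at the bottom of a panel have no read. Aqp11 lies in one band across the groups, whereas Aqp6, Aqp8 and Aqp9 run from 8.13, 4.69 and 6.31 CPM over all adult WT mTEChi cells to 0.01, 0.03 and 0.60 CPM in adult WT mTEClo.

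Counted per cell, an adult WT mTEChi cell was positive for 1.34 of the 10 members on average and Aire-KO mTEChi 1.06, against 0.65 in adult WT mTEClo and 1.98 in newborn mTEClo. At least 1 of the 5 few-cell members was positive in 20.6% of adult WT mTEChi cells (19.6% to 33.3% in the 4 pools), in 10.9% of Aire-KO mTEChi cells (37 cells, of which 27 were positive for Aqp1) and in 1.68% of adult WT mTEClo cells (6 cells). In newborn mTEChi the share was 19.9% (34 cells). Of the 620 adult WT mTEChi cells, 16 were positive for 2 or more of the 5.

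For each member but Aqp2, the protein-coding genes with the most similar log2(CPM + 1) over the 620 adult WT mTEChi cells were ranked by Pearson's r among 16038 genes, and named where r was at least 0.3. These cells share plates and pools, and the values of r are descriptions. Only Aqp1, Aqp3 and Aqp7 had such genes. The gene most like Aqp1 was Ghrhr, the receptor of growth hormone-releasing hormone (r = 0.39), which begins 27740 bases downstream of Aqp1 on chromosome 6. It was positive in 16 of the 47 Aqp1-positive cells and in 7.68% of the others, and in newborn mTEChi in 5 of 10 Aqp1-positive cells. Aqp3 was most like the carboxylesterase gene Ces2c (r = 0.43), Ms4a10 (r = 0.43) and its neighbour Aqp7 (r = 0.41). Aqp7 in turn was most like Aqp3, Ms4a10 (r = 0.36) and the collagen gene Col5a3 (r = 0.36), and cells positive for both made up 50.6% of the Aqp3-positive and 66.8% of the Aqp7-positive cells.

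Aqp2 was positive in too few cells to be compared, and the other members stayed under that limit. Just below it was Aqp9 with Aldh1a2, a retinoic acid synthesis gene 47107 bases away (r = 0.299; positive in 10 of 31 Aqp9-positive cells), and the top match of both Aqp5 and Aqp6 was the other of the 2 (r = 0.27; 9 of 23 Aqp5-positive cells were also positive for Aqp6). In adult WT mTEClo, where 13234 genes were compared, Aqp3 was most like Ces2g (r = 0.38), Skint4 (r = 0.36) and the metalloproteinase inhibitor gene Timp3 (r = 0.35). There, Aqp4 was most like Pcolce (r = 0.37), Klhdc8a (r = 0.37) and Plau (r = 0.35). Aqp11 was most like Lrrc17 (r = 0.43), BC034090 (r = 0.42) and the collagen lysyl hydroxylase gene Plod2 (r = 0.41).

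The positive cells were also sorted by the marker lists of cell types that TECs can resemble. A cell carries a list if at least 4 of its 6 genes have 5 or more reads. In adult WT mTEChi, cells that carry the enterocyte list were more often positive for Aqp3 (61.4% against 31.9% of the other cells), Aqp7 (54.9% against 21.4%) and Aqp8 (10.5% against 3.21%), and held 71.4% of the Aqp8 reads. The same order held in Aire-KO mTEChi for Aqp3 (58.8% of 34 carriers against 25.7%) and Aqp7 (58.8% against 24.7%). Other lists of adult WT mTEChi were read beside it. Aqp3 was positive in 83 of 170 microfold, 21 of 42 keratinocyte, 19 of 40 ciliated and 12 of 27 neuroendocrine carriers, beside 39.2% of all cells. For Aqp7 these counts were 53, 12, 18 and 12, beside 29.7% of all cells. In Aire-KO mTEChi, 6 of 24 neuroendocrine carriers were positive for Aqp7, beside 28.1% of all cells. Carriers and positive cells were both counted at full depth, which differed between cells. In adult WT mTEClo, Aqp7 was positive in 13 of 29 carriers of the neuroendocrine list and in 3 of the other cells (0.91%). Of these carriers, 14, 12 and 3 came from the pools of 4, 5 and 8 weeks, and this contrast is not given within pools. Carriers of the tuft list in that sort were less often positive for Aqp3 (3 of 91, against 21.8% of the others) and Aqp11 (9 of 91, against 34.96%), and Aqp11 was positive in 37.1% of the carriers of the immature mTEC list against 8.49% of the others. Most tuft-list carriers came from the 4-week and 5-week pools and most immature-list carriers from the 8-week pool, so these contrasts were also read within pools (4, 5 and 8 weeks). Aqp3 was positive in 0 of 36, 3 of 45 and 0 of 10 tuft-list carriers, against 23.3%, 27.6% and 20.8% of the other cells. For Aqp11 the shares were 8.33%, 8.89% and 2 of 10 cells against 23.3%, 24.1% and 38.2%. Immature-list carriers were positive for Aqp11 in 35.3%, 27.3% and 38.2%, against 8.16%, 9.62% and 0 of 5 other cells. The order was the same in all 3 pools for each of these contrasts.

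Keratinocyte-list carriers of adult WT mTEClo (27 cells) stood at 259.6 CPM of Aqp4 against 24.5 CPM in the rest, and at 54.2 against 2.55 CPM of Aqp5, with 5 of the 27 positive for each. Aqp11 was also high in adult cTEC that carried the thymocyte list. All 10 such cells were positive (124.5 CPM), against 20 of the other 67 (29.9%). In adult WT mTEChi, 3 of 10 carriers of that list were positive, beside 180 of all 620 cells. Positive carriers were 7 of 9 in newborn mTEChi, 3 of 3 in Aire-KO mTEChi and 2 of 2 in newborn mTEClo. The carriers in adult WT mTEClo and adult cTEC are cells of a few plates. The part of carriers in differences between groups was not tested.

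**Figure D3:**
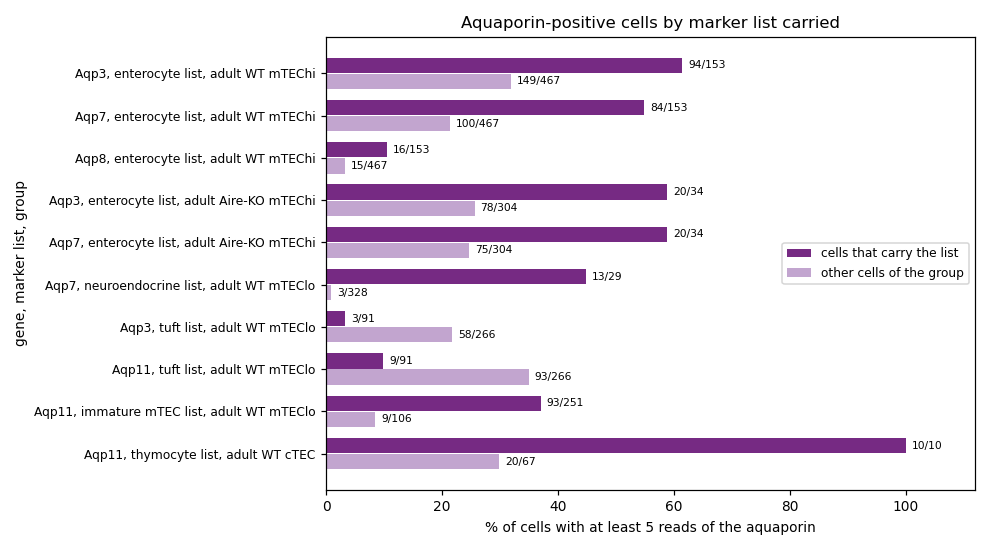
Percent of cells with at least 5 reads of an aquaporin gene among cells that carry a marker list (dark bars) and the other cells of the same group (light bars), with the counts of cells at the bar ends. Aqp3 and Aqp7 are more frequent in enterocyte-list carriers of both genotypes, and Aqp7 in neuroendocrine-list carriers of adult WT mTEClo (44.8% against 0.91%).

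The comparison of adult WT mTEChi with mTEClo asks which members go with the high MHC class II state. Aqp6, Aqp8 and Aqp1, all few-cell members, were higher in mTEChi, and no member was lower. In the edgeR fit on the 11 mTEC pools, Aqp6 differed by 11.96 ± 2.22 on the log2 scale (SE, adjusted p = 0.015), Aqp8 by 6.53 ± 1.65 (adjusted p = 0.039) and Aqp1 by 6.84 ± 1.85 (adjusted p = 0.046). With pools blocked by age and sex, Aqp6 alone was called (adjusted p = 0.022), and Aqp8 (adjusted p = 0.22) and Aqp1 (adjusted p = 0.16) were not. That fit had 1 residual degree of freedom, and only males of 4 and 5 weeks were in both sorts. The 5-week mTEChi pool is the one of 12 cells. The sizes depend on the prior count where a mTEClo pool has no read. Beside these 3 of 10 members, 7.54% of all 39971 genes tested were called higher and 4.13% lower at an adjusted p under 0.05 and at least 2 fold. Mip, outside the 10, was also called (4.78 on the log2 scale, adjusted p = 0.040).

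The other members were not called: Aqp3 differed by 2.32 ± 0.78 (adjusted p = 0.080), Aqp9 by 2.79 ± 1.32 (adjusted p = 0.17) and Aqp5 by -2.85 ± 1.14 (adjusted p = 0.12). With plates as units, which treats cells of a pool on separate plates as separate, Aqp1, Aqp3, Aqp6, Aqp8 and Aqp9 were called higher (25.8% of genes) and Aqp5 lower (9.21% of genes). The calls rest on single pools: Aqp6 alone remained without the 4-week female, the 4-week male or the 6-week mTEChi pool, Aqp9 alone was called without the 4-week mTEClo pool, Aqp1 and Aqp6 without the 8-week mTEClo pool and none without the 5-week mTEClo pool, while Aqp1, Aqp3, Aqp6 and Aqp8 were called without the 12-cell mTEChi pool. Without the cells sequenced in 2 runs, which removes the 5-week and 6-week pools, none was called.

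In newborns the 3 sorts shared 5 plates, and the plate was a term of the fit. Aqp8 rose by 6.73 ± 0.99 on the log2 scale from mTEClo to mTEChi (SE, adjusted p = 0.00036), Aqp7 by 3.27 ± 0.98 (adjusted p = 0.018) and Aqp1 by 3.26 ± 1.00 (adjusted p = 0.020). Those are 3 of 10 members called higher, beside 19.9% of all 23349 genes tested, and in either direction 31.9% of the genes and the same 3 members were called. Aqp7 was higher in mTEChi on 5 of 5 plates, at 4.36 to 16.1 CPM against 0.49 to 1.57 CPM. Aqp8 was called without each plate in turn. Aqp7 was not called without plate 17 (adjusted p = 0.052) or plate 19 (adjusted p = 0.070), nor Aqp1 without plate 18 (adjusted p = 0.083) or plate 19 (adjusted p = 0.065). Aqp3 differed by 0.75 ± 0.28 (adjusted p = 0.048), which is under 2 fold, and Aqp5 by -1.64 ± 0.76 (adjusted p = 0.098). As plates are technical units of 1 pool per sort, these p-values do not cover differences between mice.

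Newborn cTEC and mTEClo differed in Aqp3, which was 8.77 CPM in cTEC and 62.9 CPM in mTEClo and lower in cTEC on all 5 plates. It fell by 2.89 ± 0.31 on the log2 scale (SE, adjusted p = 0.00081). It was the 1 member called lower, beside 1.66% of genes, and no member was called higher, beside 2.0% of genes. Aqp5, at 12.9 CPM in cTEC and 31.5 CPM in mTEClo, was not called.

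The comparison of Aire-KO with WT mTEChi asks which members differ in level without Aire. The Aire-KO cells came from 5-week males, and the 12-cell WT pool is the only WT mTEChi pool of that age and sex. The other 3 WT pools were of 4 or 6 weeks, so age also differs between them and the Aire-KO pool. In adult mTEChi, Aqp9 had 3016 reads in 59 WT cells and 1 read in 1 Aire-KO cell, a ratio of 1849.6 in CPM with a 95% interval of 331.7 to 73080 that covers counting error only. Aqp6 had 3883 reads in 70 WT cells and 78 reads in 3 Aire-KO cells, and Aqp1 20.3 CPM in WT and 1.42 CPM in Aire-KO, although 7.58% and 7.99% of cells were positive. The Aire-KO level of Aqp9 was below all 4 WT pools (5.24 CPM and more), and so was that of Aqp6 at 0.27 CPM (2.44 CPM and more), whereas Aqp1 at 1.42 CPM was above the 12-cell WT pool (1.00 CPM) and below the other 3 (10.0 CPM and more).

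Aqp3 at 35.2 CPM, Aqp8 at 1.73 CPM and Aqp5 at 0.30 CPM in Aire-KO mTEChi were likewise above the 12-cell WT pool alone (6.63, 0 and 0 CPM), the one of the same age and sex. They were below the other 3 WT pools (at least 63.5, 2.60 and 1.05 CPM). Aqp7 at 13.4 CPM, Aqp11 at 8.66 CPM and Aqp4 at 4.43 CPM were within the range of the WT pools with and without that pool. Aqp8 reads in Aire-KO came from 2 of the 4 plates (2.95 and 4.28 CPM, with 0.10 and 0 CPM in the others). Aqp2 (0.03 CPM) stood next to the 6-week WT pool (0.03 CPM). Mip, outside the 10, was 7.37 CPM in WT and 0.14 CPM in Aire-KO.

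With 1 Aire-KO pool, the edgeR fit on pools called 0 of the 10 members and 0.0% of all genes, although 4.37% of the 39971 genes had an unadjusted p under 0.05, Aqp9 and Aqp6 among them. The fitted log2 differences were -10.39 ± 3.26 for Aqp9, -7.38 ± 2.88 for Aqp6 and -4.36 ± 2.68 for Aqp1 (SE, adjusted p = 0.93 for each), and -0.85 ± 1.12 for Aqp3. Aire itself had -5.69 ± 0.57 and an adjusted p of 0.24 in this fit. With plates as units Aqp9 was called lower (-9.97 ± 2.10, adjusted p = 0.0052), beside 4.44% of genes, while Aqp6 (adjusted p = 0.055) and Aqp1 (adjusted p = 0.062) were not. DESeq2 on the pools called Aqp9 and Aqp6 lower, beside 2.12% of genes. Cells that carry the enterocyte list were 24.7% of WT and 10.1% of Aire-KO mTEChi cells, with a summed level of the 6 markers of 386.8 and 269.6 CPM. The microfold list was carried by 27.4% and 6.51%, the keratinocyte list by 6.77% and 2.66%, the ciliated list by 6.45% and 3.25%, the tuft list by 2.90% and 0.30% and the neuroendocrine list by 4.35% and 7.10%. The part of these cells in the values was not tested.

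**Figure D4:**
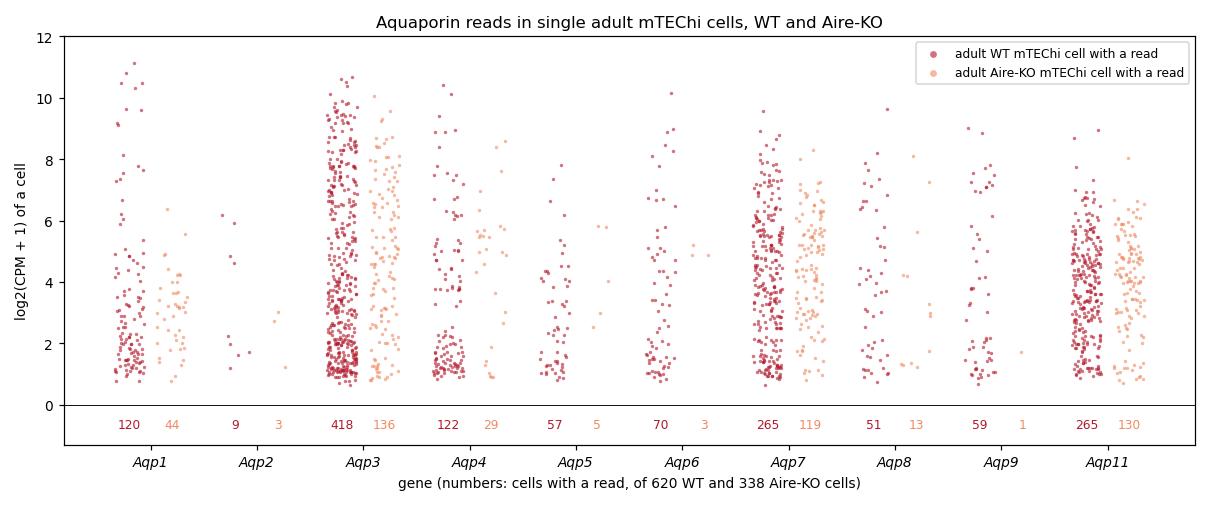
Each point is an adult mTEChi cell with at least 1 read of the gene, at its log2(CPM + 1), for WT (dark red) and Aire-KO (orange); the numbers under the line count those cells. the ranges of Aqp3, Aqp7 and Aqp11 overlap between genotypes, while Aqp9 has 59 WT cells and 1 Aire-KO cell and Aqp6 has 70 and 3.

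In adult mTEClo, Aire-KO and WT did not differ in a call of any member, with 0.0% of genes called and 3.55% of genes at an unadjusted p under 0.05, none of them a member. Aqp5 was 1.81 CPM in Aire-KO and 7.10 CPM in WT, and Aqp9 0.03 CPM against 0.60 CPM. Both Aire-KO levels were within the range of the WT mTEClo pools. Aqp5-positive cells made up 6.49% of Aire-KO and 5.32% of WT mTEClo, and a single cell held most of the WT Aqp9 reads. The difference of the Aire-KO effect between mTEChi and mTEClo, tested as an interaction, was likewise called for 0 of 10 members and 0.0% of genes (3.44% at an unadjusted p under 0.05), and its smallest unadjusted p among the members was 0.036.

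The comparison of newborn with adult WT cells asks which members change with age. On pools, edgeR called no member in mTEChi (0.0% of genes, with 2.01% at an unadjusted p under 0.05) or in mTEClo (0.0% of genes, with 9.93%). In mTEClo the newborn pool was above all 3 adult pools for Aqp3 (62.9 against 10.1 to 13.1 CPM), Aqp5 (31.5 against 1.10 to 20.5 CPM), Aqp6 (4.87 against 0 to 0.03 CPM) and Aqp2 (1.60 against 0 to 0.28 CPM), and below them for Aqp7 (1.06 against 2.24 to 8.78 CPM). With plates as units Aqp3 (2.13 ± 0.41 on the log2 scale, adjusted p = 0.00048) and Aqp6 (9.25 ± 2.24, adjusted p = 0.0037) were called higher in newborns, beside 7.08% of genes, and Aqp7 lower (-2.77 ± 0.88, adjusted p = 0.023), beside 8.92%. A single cell held most of the Aqp6 reads of newborn mTEClo, and a single cell most of the Aqp7 reads of adult WT mTEClo. The share of Aqp7-positive cells was not lower in newborns (5.65% against 4.48%). Age, plate and the cTEC list carried by most newborn mTEClo cells cannot be told apart here, since no plate held both ages. In mTEChi, Aqp5 was 11.9 CPM in newborns and 0 to 2.29 CPM in the adult pools.

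**Figure D5:**
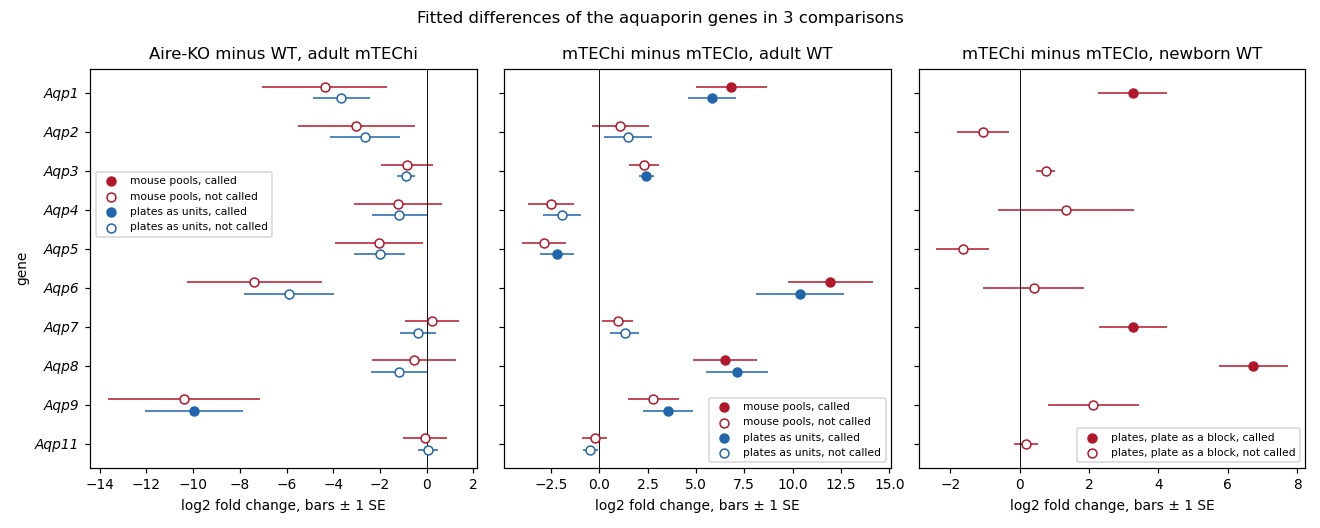
Fitted log2 fold changes of the 10 aquaporin genes with bars of 1 SE, for Aire-KO minus WT in adult mTEChi, and for mTEChi minus mTEClo in adult and newborn WT. Red is the fit on mouse pools (newborn: plates with the plate as a block), blue the fit on plates as units, and filled points were called at an adjusted p under 0.05 and at least 2 fold; Aqp8 and Aqp1 are filled to the right of 0 in both the adult and the newborn sort comparison.

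Of the genes that work with the family, a list of 16 salt, urea and water transport genes had 4 members higher (7.54% of all genes) and 1 lower (4.13%) in adult WT mTEChi than in mTEClo, with a median of 1.57 on the log2 scale (0.30 over all genes). The higher ones were the kidney salt cotransporters Slc12a1 (6.66) and Slc12a3 (3.40) and the urea transporters Slc14a1 (6.55) and Slc14a2 (6.58), and the lower one was the cotransporter Slc12a2 (-1.63). In newborns, 4 of 15 tested were higher in mTEChi (19.9% of all genes), Slc12a1 (9.92), Slc14a1 (5.41) and Slc14a2 (6.06) among them. The bicarbonate cotransporter Slc4a4 was lower (-2.02), as were 2799 of all 23349 genes tested. Newborn cTEC had 1 of the 15 tested above mTEClo, the sodium channel subunit Scnn1a (1.78), beside 2.0% of all genes.

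A list of 8 genes of glycerol and triglyceride handling had 1 member higher in adult WT mTEChi than in mTEClo, beside 7.54% of all genes. It was the lipase Pnpla2 (1.16 on the log2 scale, with a list median of 0.29). In newborns 4 of 7 tested were higher in mTEChi, against 19.9% of all genes: glycerol kinase Gk (1.05), the lipases Lpl (2.01), Mgll (1.94) and Pnpla2 (1.73). Newborn cTEC had 1 of the 7 above mTEClo, Mgll (1.07), beside 2.0% of all genes. No gene of either list was called in the Aire-KO or the newborn-against-adult comparisons on pools, where the median of the transport list was -0.67 and that of the glycerol list -0.83 for Aire-KO against WT mTEChi, against -0.16 over all genes.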

How the data were processed

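Reads of RamDA-seq libraries were trimmed (fastp 0.20.0), aligned (STAR 2.7.3a, mm10), deduplicated (Picard 2.21.1) and counted per gene without strand (HTSeq 0.11.2, GRCm38) by the authors, who deposited raw read counts per cell. The 168 cells sequenced in 2 runs arrived as 1 column each, giving 1980 cells from 2148 libraries: adult WT mTEChi 620, mTEClo 357, cTEC 77, Aire-KO mTEChi 338, mTEClo 154, newborn mTEChi 171, mTEClo 124 and cTEC 139. From these deposited counts, cells were summed per mouse pool (same group, age and sex) or per plate and group, and tested with edgeR 4.0.16 in R 4.3.3 (filterByExpr, TMM, quasi-likelihood test, Benjamini-Hochberg over all genes); called means adjusted p under 0.05 and at least 2 fold. The mTEC fit used 11 pools of 6 groups, the newborn fit 15 plate sums with the plate as a block. DESeq2 1.42.0, plates as units, RLE scaling, no filter, other samples and leaving out pools were alternatives. Shares used NumPy 2.4.6 and SciPy 1.17.1, with a seeded thinning to 200000 reads, and figures used matplotlib. Scripts were tested on simulated data. Named genes were the 10 members, Mip, Aqp12, Aire and, per member, up to 3 genes with r of at least 0.3 (at least 5 reads in at least 20 cells); the genes just under that limit and the list genes that were called were named after their values were seen. Members and lists were chosen with earlier results of these data known. No sample was left unassigned. The newborn result of 1 list gene is not reported here. Reads are not independent molecules, so intervals cover counting error only.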

Additional observations from a re-analysis of the deposited data

Results flagged for a closer look

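Of 10 tests for a pool that stands apart from the other 3 of adult WT mTEChi (Dixon's ratio above its 95% critical value), 1 was met: Aqp6 stood at 166.1 CPM in the 5-week pool, with a gap of 0.915 of the range of the 4 pools. The pool holds 12 cells and 1 of them held 28.02% of the Aqp6 reads of the whole group, and without that cell the pool was at 34.0 CPM. Chance flags about 1 in 20 groups. None of the 10 members passed the test for a difference of the Aire-KO effect between adult mTEChi and mTEClo.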

How the results depend on the processing

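Members called in Aire-KO against WT mTEChi numbered 0 on pools, 2 with DESeq2 and 1 with plates as units. In adult WT mTEChi against mTEClo there were 3 on pools, 5 with DESeq2, 6 with plates as units, 0 without the cells sequenced in 2 runs, and 0 to 4 when 1 pool was left out. Of the pools of the 2 sorts, only males of 4 and 5 weeks were in both, and no mice are numbered. With age and sex as a replicate block, which left 1 residual degree of freedom, 1 member was called, Aqp6, against 3 without the block. In newborn against adult mTEClo there were 0, 1 with DESeq2 and 3 with plates as units. In newborn cTEC against mTEClo there was 1, with 3 under DESeq2 and 2 with no replicate block. In newborn mTEChi against mTEClo there were 3, and 1 to 3 when 1 plate was left out. A breadth limit of 10% of cells left 3 few-cell members in place of 5, and one of 50% gave 6 and no broad member. The fitted Aqp8 difference between Aire-KO and WT mTEChi ran from -0.85 to 0.19 when 1 pool was left out and changed sign there. The causes were not tested. Fitting only the pools compared, an alternative chosen after seeing the data, gave 0 and 3 members, as with all 11. Of 990 fold changes of members under the alternatives, 37 changed sign, none of them called. RLE in place of TMM moved the median of all genes from 0.30 to 0.40 on the log2 scale in adult WT mTEChi against mTEClo. Cells under 5 reads are not counted as positive, and the number of cells limits shares near 0: a count of 0 in adult WT mTEClo allows 0.84% of cells.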
